A study of Rattus norvegicus with 180 samples.

Results

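Pancreas and parotid gland, both exocrine glands of the serous kind, were compared within the same 3 rats. The miRNAs of the 2 glands were read from 6 of the 180 arrays of a rat atlas, 1 array for each gland of the animals numbered 4, 5 and 6. The animals were male Sprague-Dawley rats aged 10 weeks, anaesthetized with ether and flushed with saline to clear the organs of blood. Both groups therefore share strain, sex, age and perfusion, and the 6 arrays lay on 6 different slides. The same mass of total RNA was labelled with the dye Cy3 for every array. All 717 rat miRNAs of the array design were considered, and 128 of them, those detected on all 3 arrays of at least 1 gland, entered the test. Each array reads whole-tissue RNA, so that fewer cells of a type and less miRNA per cell cannot be told apart.

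A miRNA is a short RNA that pairs with messenger RNAs, mainly through its seed, bases 2 to 8 counted from the 5′ end, and lowers their translation or stability. Acinar cells of both glands make, store and release digestive enzymes, amylase among them, into a system of ducts. In the pancreas they are known for miR-216a, miR-216b and miR-217, which are read from one stretch of the genome. The pancreas also holds the endocrine islets, whose best known miRNA is miR-375. Epithelial cells of most organs carry the miR-200 family, whose targets include the repressors ZEB1 and ZEB2.

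The mature sequences that the comparison turns on are given from RefSeq (build GRCr8), with the seed in capitals. The array names many miRNAs without an arm; the arm was then assigned by hand. The first set shows the pancreas markers, in which miR-216a and miR-216b-5p differ at 4 positions (U1A, A8U, U11A and C17A, counted from the 5′ end with miR-216a as reference), one of them in the seed.
miR-216a: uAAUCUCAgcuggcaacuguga
miR-216b-5p: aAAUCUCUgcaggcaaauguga
miR-217: uACUGCAUcaggaacugacugg
miR-375: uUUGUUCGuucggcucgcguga

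The second set shows miRNAs that were called higher in pancreas on both scales, most of them rich in G and C.
miR-1224: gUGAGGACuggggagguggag
miR-3584-5p: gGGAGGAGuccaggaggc
miR-494: uGAAACAUacacgggaaaccucu
miR-652*: aCAACCCUaggagggggugccau
miR-370: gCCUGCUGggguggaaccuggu
miR-188: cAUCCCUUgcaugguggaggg
miR-139-3p: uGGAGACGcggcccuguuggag
miR-125a-3p: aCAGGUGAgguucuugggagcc
miR-327: cCUUGAGGggcaugagggu
miR-874: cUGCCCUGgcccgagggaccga

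The third set shows let-7, miR-29 and miR-30 members, which share a seed within the family but differed between the glands to unequal degrees, and at its end miR-141 and miR-200c, neighbours of the miR-200 family whose seeds are not the same. Against let-7a, let-7b has the changes A17G and A19G, let-7c has A19G and let-7f has G12A. Between miR-29a and miR-29c the single change is C10U.
let-7a: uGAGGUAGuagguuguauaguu
let-7b: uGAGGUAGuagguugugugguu
let-7c: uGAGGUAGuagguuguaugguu
let-7f: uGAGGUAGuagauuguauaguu
miR-29a: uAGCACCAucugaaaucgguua
miR-29b: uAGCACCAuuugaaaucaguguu
miR-29c: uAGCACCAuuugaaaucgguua
miR-30a: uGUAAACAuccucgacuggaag
miR-30c: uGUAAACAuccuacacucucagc
miR-141: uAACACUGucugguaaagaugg
miR-200c: uAAUACUGccggguaaugaug

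The overall signal separated the glands before any single miRNA was compared. The 75th percentile of the unscaled signal, taken over the 37 miRNAs detected on all 180 arrays, was 121, 90.5 and 68.0 in pancreas of rats 4, 5 and 6 and 1061, 609 and 336 in parotid gland. Rat 4 was highest and rat 6 lowest in both glands, and within a rat the parotid gland exceeded the pancreas 8.79-fold, 6.72-fold and 4.94-fold. To bring the arrays to a common level, as the scaled signal does, pancreas values were multiplied by 17.5, 23.4 and 31.1 and parotid values by 2.00, 3.48 and 6.30. The number of miRNAs detected, meaning that over 50% of their spots stood well above background, was 102, 108 and 86 in pancreas and 149, 139 and 111 in parotid gland. The summed signal of all miRNAs ran the other way, with 90051, 71870 and 85314 in pancreas against 55184, 40772 and 24632 in parotid gland. None of these measures overlapped between the glands, and for each the exact two-sided permutation test gave p = 0.1, the smallest that 3 arrays against 3 allow.

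The 2 opposite directions met in 4 entries of the array, miR-1224, miR-494, its version from miRBase 15.0 (miR-494_v15.0) and miR-3584-5p. They held 89.5%, 86.4% and 91.9% of the summed signal in pancreas and 12.2%, 35.8% and 40.2% in parotid gland. Without them the sums were 9476, 9760 and 6943 in pancreas and 48450, 26186 and 14720 in parotid gland, so that the remaining signal was brighter in parotid gland in all 3 rats. Among the 55 perfused organs pancreas had the highest and parotid gland the second highest mean share of these 4 entries. In the other 53 organs the share had a median of 0.431% and reached 10.3% in bone marrow. The median background of the 6 arrays lay between 301 and 314, and 0 spots were saturated.

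**Figure D1:**
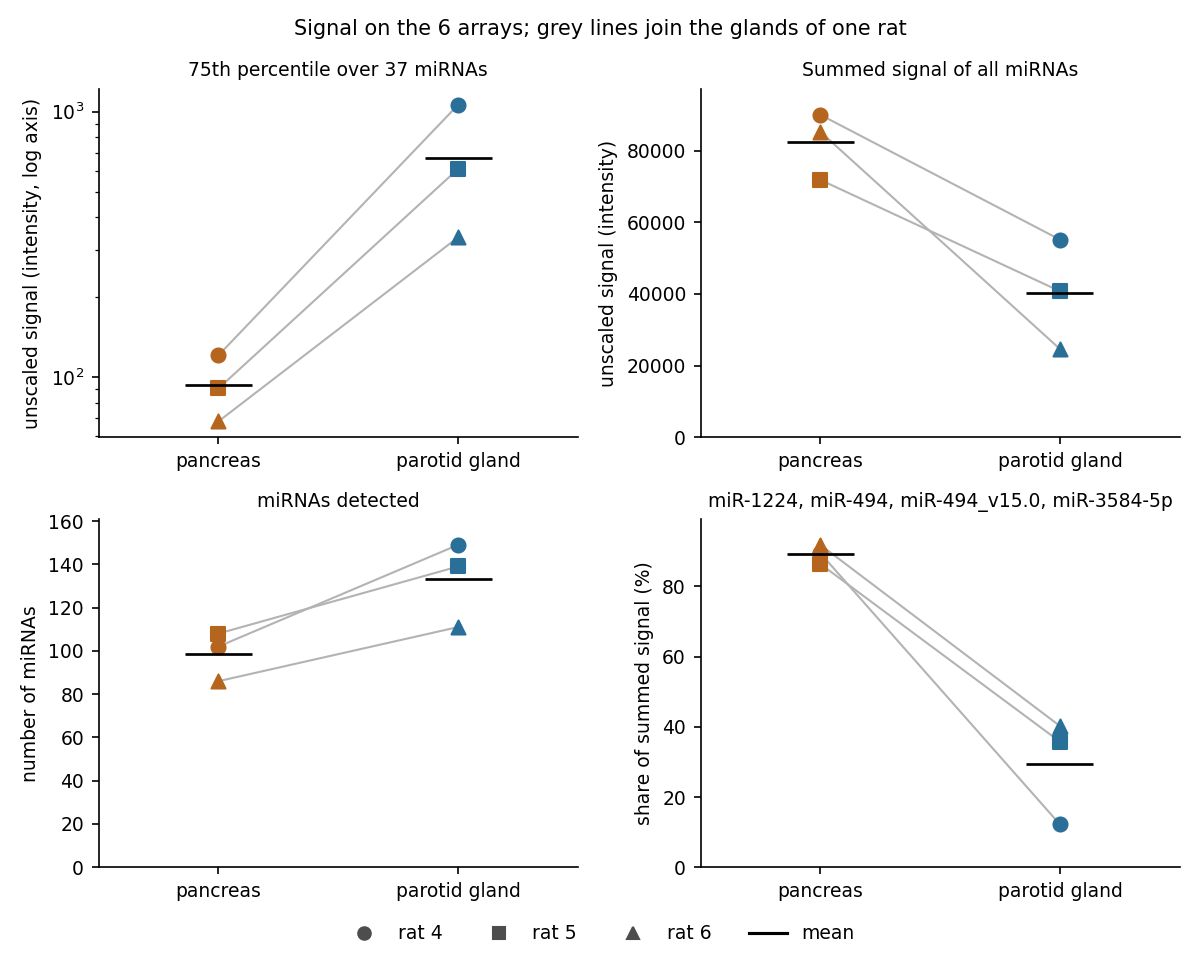
The panels plot, for each of the 6 arrays, the 75th percentile of the unscaled signal over 37 miRNAs (intensity, log axis), the summed unscaled signal (intensity), the number of miRNAs detected and the share of the summed signal held by 4 entries (%), with grey lines joining the glands of one rat and black bars for the means. Pancreas lay lower for the percentile (68.0 to 121 against 336 to 1061) and for the number detected, and higher for the sum and for the share of the 4 entries (86.4% to 91.9% against 12.2% to 40.2%).

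On the scaled signal 32 of the 128 tested miRNAs were higher in pancreas (25%) and 19 were lower (14.8%) by limma with the rat as a block, at a Benjamini-Hochberg adjusted p under 0.05, and the median difference was 0.04 on the log2 scale. On the unscaled signal 31 were higher (24.2%) and 81 lower (63.3%), around a median of -1.49. The 2 scales shared 20 miRNAs that were higher and 19 that were lower. Above both floors the scaled and unscaled differences of a miRNA are set apart by a constant. This constant is the log2 difference of -2.73 between the glands in the 75th percentile over the 37 miRNAs. A miRNA lower after scaling therefore has to be lower before it, so the 19 shared are no second line of evidence. A group of 7 miRNAs (let-7b, miR-25, miR-29a, miR-30a, miR-30d, miR-34a and miR-99a) was higher in pancreas after scaling and lower without it. A further 5 (miR-181a, miR-320, miR-324-3p, miR-375 and miR-466b-1*) were higher after scaling and not called without it. With the 75th percentile taken over all miRNAs the split was 36 higher and 77 lower, over the 62 miRNAs detected on all 6 arrays 42 and 38, with quantile normalization 33 and 55, and 15 and 35 in the authors' normalized table.

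The counts also changed when single rats, each of which gave 1 array to either gland, were left out. Such fits hold fewer arrays and have less power. A call lost in them, here or below, does not by itself show that the value hung on that rat. On the scaled signal 31 were higher and 9 lower without rat 4, 8 and 5 without rat 5, and 10 and 3 without rat 6. Of the 43 miRNAs that were picked by the naming rule and passed on the scaled signal, 21 no longer passed without rat 4, 33 without rat 5, 32 without rat 6, 33 with a floor 4 times as high and 24 with normexp background correction. Scaled values were set to at least 272.6, the highest of the lowest detected signals on the 6 arrays, which put 29 of the 128 miRNAs at the same value on all 6 arrays, and with a low floor of 10.8 the counts were 66 and 40. In the unscaled fit limma estimated one common spread, a standard error of 0.37 for every miRNA, while the log2 difference between glands in the 75th percentile over the 37 miRNAs ranged over the rats from -3.14 to -2.31, so its adjusted p-values treat as independent what the miRNAs of an array share. The arrays of one rat were scanned together, and with each of the 6 arrays on another slide, slide and gland cannot be told apart within these arrays.

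**Figure D2:**
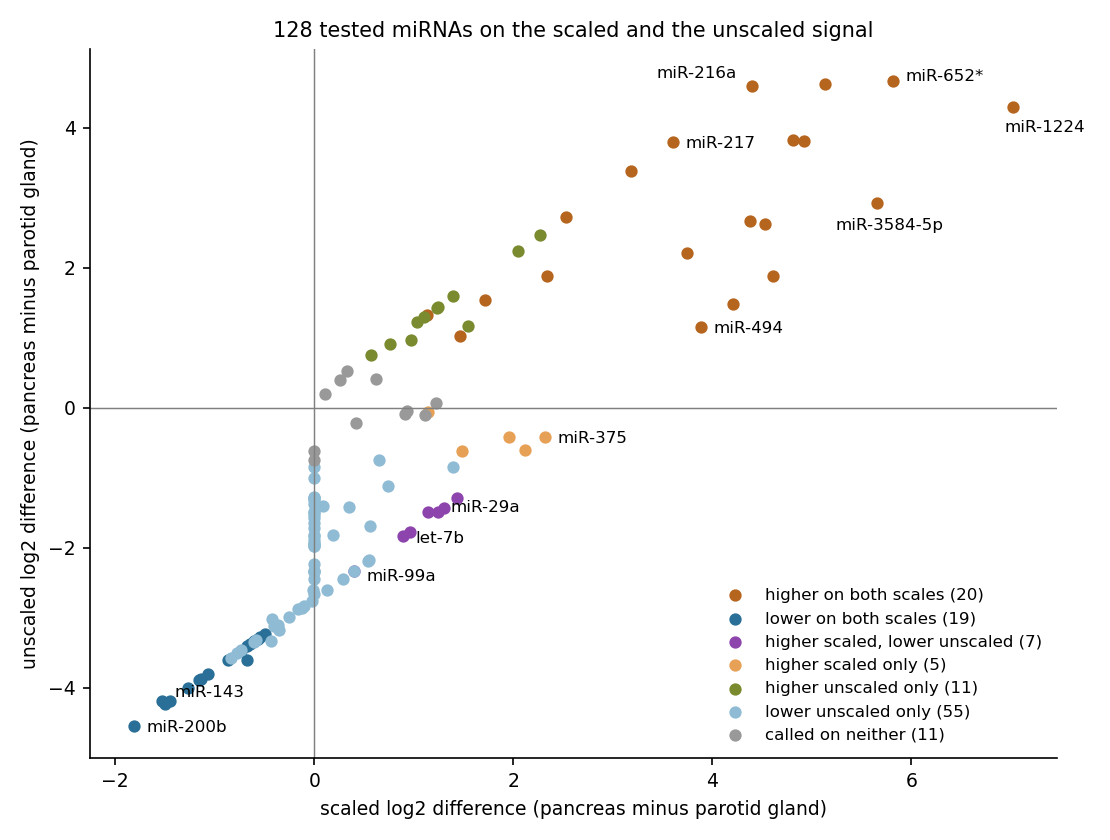
Each point is 1 of the 128 tested miRNAs, with its scaled log2 difference (pancreas minus parotid gland) on the horizontal axis and its unscaled log2 difference on the vertical axis, coloured by the calls on both scales. The 20 miRNAs higher on both scales lie at the upper right, with miR-1224 farthest along the horizontal axis, the 19 lower on both sit at the lower left with miR-200b at the end, and the column at 0 holds miRNAs set to the floor.

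The acinar miRNAs of the pancreas separated the glands completely. The scaled signal of miR-216a was 5463, 5889 and 5966 in pancreas and -4.19, -4.96 and -4.28 in parotid gland, where it stood at the background. Its unscaled signal was 311, 252 and 192 in pancreas. miR-216a was detected on 3 of 3 pancreas arrays and 0 of 3 parotid arrays, so its difference has only a lower bound, at least 178-fold higher in pancreas on the scaled signal and at least 26.9-fold on the unscaled signal (limma adjusted p = 0.00125 scaled). Both miR-216a and miR-217 entered the test through pancreas alone, which fixes their direction there. miR-217 had 3487, 3358 and 3089 in pancreas and was likewise on 0 of 3 parotid arrays, with bounds of at least 102-fold scaled and 15.4-fold unscaled. The remaining miRNA of the group, miR-216b-5p, gave 628, 561 and 639 in pancreas on the scaled signal, was detected there on 2 of 3 arrays and in parotid gland on 0, and was therefore not tested.

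The mature sequences printed above lie on one strand of GRCr8 chr14. miR-216b-5p is at chr14:106714045-106714066, miR-216a at chr14:106725095-106725116 and miR-217 at chr14:106732516-106732537, with 11028 and 7399 bases between neighbours, inside long non-coding RNA genes. Across the atlas pancreas ranked first of 55 organs for all 3, and the other 53 organs had miR-216a and miR-217 detected on 2 of 159 arrays each, with pituitary gland the highest (scaled means of 22.8 and 12.1). The parotid gland did not share this signature with pancreas, and neither did the mandibular and sublingual glands, whose scaled means of miR-216a were -2.63 and -2.43. Of the 9 entries of the acinar list 3 were tested, and the last of them, miR-148b-3p, had 60.3, 36.0 and 21.5 unscaled in parotid gland and was on 0 of 3 pancreas arrays.

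The islet miRNA miR-375 was present in both glands. Its scaled signal was 5564, 6391 and 5664 in pancreas and 1051, 1221 and 1271 in parotid gland, without overlap. The scaled difference was 2.32 ± 0.07 (SE, n = 3 rats, limma adjusted p = 0.00552), a 4.98-fold higher level in pancreas. On the unscaled signal the order turned, with 317, 273 and 182 in pancreas and 527, 351 and 202 in parotid gland, and the difference of -0.41 ± 0.37 did not pass (adjusted p = 0.283). It was 0.15 with the 75th percentile over all miRNAs (adjusted p = 0.498), 0.60 in the authors' normalized table (adjusted p = 0.00799), and missed the threshold without rat 5 (2.28, adjusted p = 0.0759). On the scaled signal pancreas ranked 1 and parotid gland 3 among 55 organs, with pituitary gland between them at 5659, and mandibular and sublingual glands had 862 and 778. Unscaled, pancreas ranked 14 and parotid gland 8, with pituitary gland highest at 6847. miR-375 lies at GRCr8 chr9:83906591-83906612 within the bounds of Cryba2, a crystallin gene. Of the other islet entries, miR-7a was on 2 of 3 pancreas arrays, with 250, 344 and 194 scaled, and on 0 parotid arrays, with 36.5, 27.2 and 38.8, while unscaled it was 14.2, 14.7 and 6.24 against 18.3, 7.83 and 6.15.

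**Figure D3:**
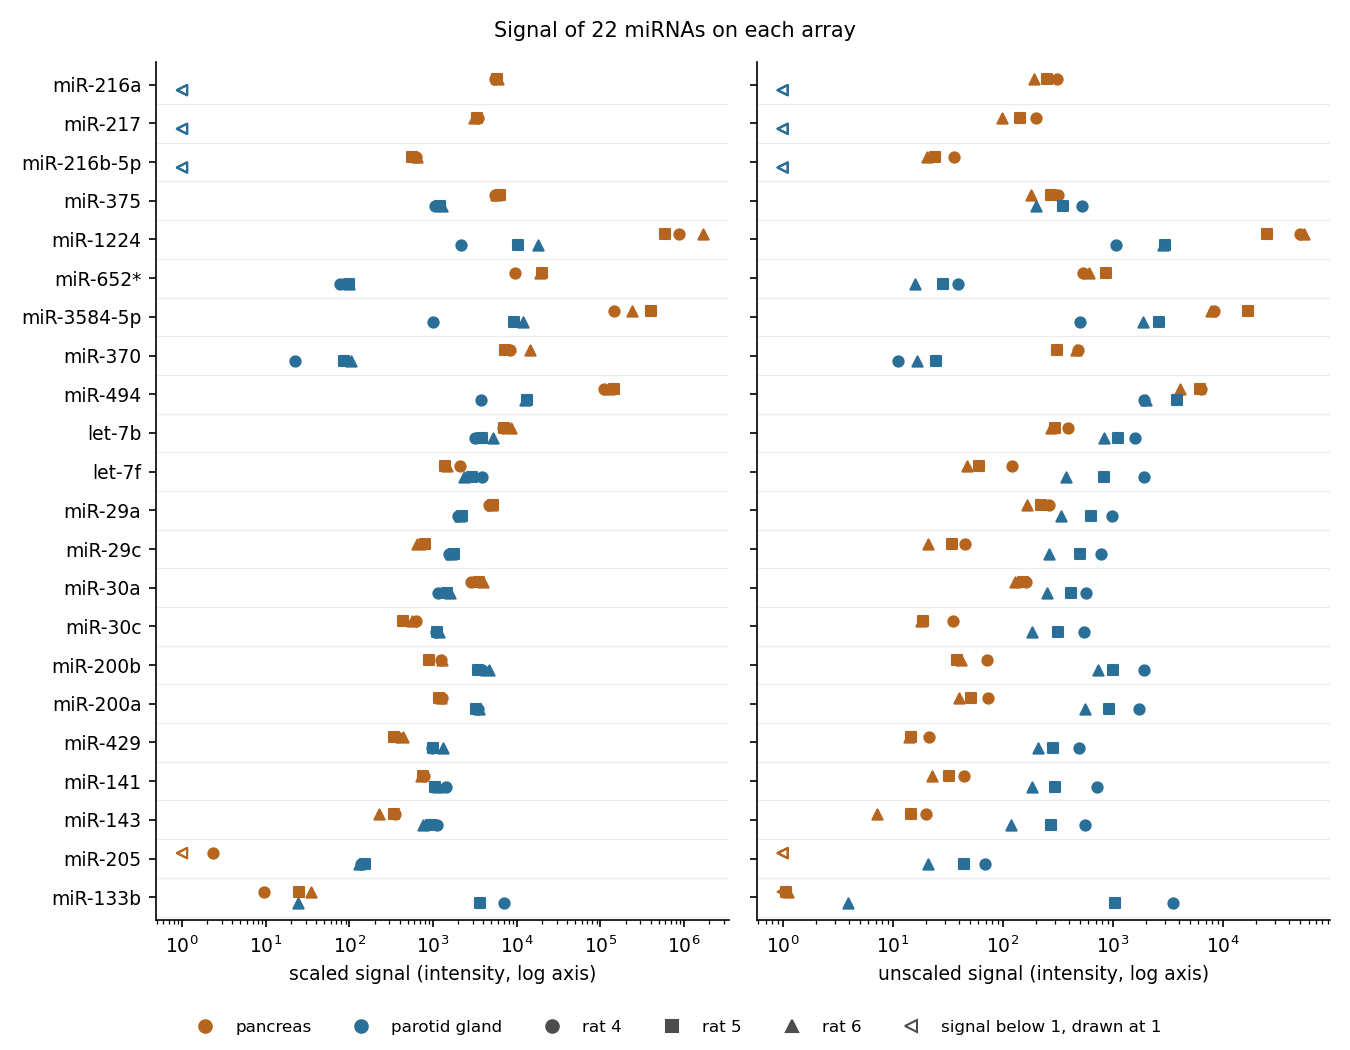
The signal of 22 miRNAs is plotted for each array on the scaled signal (left) and the unscaled signal (right), both as intensity on log axes, with colour for the gland, symbol for the rat and open triangles for values below 1. miR-216a, miR-217 and miR-216b-5p have parotid values below 1 on both scales, miR-375 and the let-7b, miR-29a and miR-30a values change order between the scales, and miR-133b is high in parotid gland of rats 4 and 5 only.

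Other miRNAs than the acinar markers were also far brighter in pancreas. miR-1224 had scaled signals of 880135, 589293 and 1688800 in pancreas and 2145, 10420 and 17896 in parotid gland. Unscaled it was 50168, 25183 and 54222 against 1075, 2994 and 2840, so both scales put every pancreas array above every parotid array. The scaled difference was 7.02 ± 0.78 (SE, n = 3 rats, limma adjusted p = 0.0268), a 130-fold higher level, and the unscaled one was 4.29 ± 0.37, a 19.6-fold higher level. The scaled value was 6.19 without rat 4 (adjusted p = 0.0440), 7.62 without rat 5 (0.117), 7.25 without rat 6 (0.151) and 3.01 with quantile normalization (0.0946), so that the scaled call was lost without rat 5, without rat 6 and with quantile normalization, and likewise with a floor 4 times as high (7.02, adjusted p = 0.0889). The sequence lies at GRCr8 chr11:93811355-93811375 inside Vwa5b2, a protein-coding gene. miR-3584-5p, at GRCr8 chr1:256727582-256727599 inside Itprip, had unscaled signals of 8330, 17081 and 7746 in pancreas and 508, 2646 and 1873 in parotid gland, with differences of 5.65 scaled and 2.92 unscaled, and 2.31 with quantile normalization (adjusted p = 0.152). Its scaled call was also lost in the authors' normalized table (3.94, adjusted p = 0.0549), with a floor 4 times as high and without each rat (adjusted p = 0.0671, 0.186 and 0.125).

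miR-494 and its older version were bright in both glands. The unscaled signal of miR-494 was 6349, 6209 and 4091 in pancreas and 1903, 3811 and 1996 in parotid gland, so that its unscaled difference of 1.16 ± 0.37 stood beside 3.89 ± 0.45 scaled, 2.18 in the authors' normalized table (adjusted p = 0.0620) and 0.16 with quantile normalization (adjusted p = 0.907). miR-494_v15.0 had 15727, 13638 and 12312 in pancreas and 3247, 5135 and 3204 in parotid gland, unscaled, and its difference was 4.61 scaled, 1.88 unscaled and -1.10 with quantile normalization (adjusted p = 0.122). The scaled calls of miR-494 and miR-494_v15.0 were also lost without rat 5 (adjusted p = 0.152 and 0.108) and without rat 6 (0.137 and 0.120). A floor 4 times as high likewise removed both calls (0.0889 and 0.0648). In parotid gland the share of these 2 entries and of miR-1224 and miR-3584-5p was lowest in rat 4, whose array was also the brightest in the 75th percentile. Whether the levels of the 4 entries bear on the low percentile in pancreas was not tested.

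A second group had moderate pancreas levels and was faint in parotid gland. miR-652*, the passenger strand of miR-652, had unscaled signals of 539, 868 and 606 in pancreas and 38.8, 28.6 and 15.8 in parotid gland, with differences of 5.82 ± 0.32 scaled and 4.66 ± 0.37 unscaled. Its scaled parotid values lay under the floor of 272.6, and with the low floor the scaled difference was 7.39. The scaled call of miR-652* was lost with a floor 4 times as high (adjusted p = 0.0666), without rat 5 (0.0883) and without rat 6 (0.106). The guide strand, miR-652, was lower in pancreas on the unscaled signal and was not called on the scaled signal. miR-370 had 478, 308 and 461 unscaled in pancreas and 11.1, 24.6 and 16.8 in parotid gland, a difference of 5.13 ± 0.28 scaled. Its scaled parotid values (22.2, 85.5 and 106) were likewise set to the floor, and with the low floor the scaled difference was 7.35. The scaled call of miR-370 was lost with a floor 4 times as high (adjusted p = 0.0679), without rat 4 (0.0602) and without rat 5 (0.0768). miR-188, inside Clcn5 on GRCr8 chrX:17919595-17919615, had 367, 310 and 309 against 16.6, 32.7 and 22.5, a difference of 4.81 scaled that fell to 2.65 and was not called when spots marked as outliers were kept (adjusted p = 0.371). With the low floor the scaled difference of miR-188 was 6.56, and without rat 5 it missed the threshold (4.85, adjusted p = 0.0759). miR-328a*, miR-139-3p (inside Pde2a) and miR-125a-3p had scaled differences of 4.92, 4.54 and 4.38, and with the low floor 6.54, 5.36 and 5.40. miR-139-3p was not called with normexp background correction (1.44, adjusted p = 0.106). The scaled calls of miR-328a* and miR-139-3p were lost with a floor 4 times as high and without each rat. That of miR-125a-3p was lost with the same floor (adjusted p = 0.0889) and without rat 6 (0.0938). miR-125a-3p was on 2 parotid arrays and entered the test through pancreas alone, which favours a higher value there. miR-327 was bright in both glands, with 696, 882 and 496 unscaled in pancreas and 139, 409 and 246 in parotid gland, and differed by 4.21 scaled and 1.48 unscaled. The scaled call of miR-327 was lost in the authors' normalized table (2.50, adjusted p = 0.0817), without rat 5 (0.186) and without rat 6 (0.137). The 12 miRNAs most raised on the scaled signal, as cut at the floor of 272.6, all ranked first in pancreas among 55 organs on both scales, miR-216a among them. This is a description only, since they were picked for their level there. With the low floor the order differed, and miR-216a (9.06), miR-217 (8.25, not among the 12) and miR-652* (7.39) exceeded miR-1224 (7.02). For miR-1224, miR-3584-5p, miR-370, miR-125a-3p, miR-327 and both entries of miR-494, parotid gland ranked second on the scaled signal.

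Among the miRNAs found on 3 of 3 pancreas arrays and 0 of 3 parotid arrays, 16 in number, miR-666 and miR-874 followed miR-216a and miR-217. miR-666 had scaled signals of 2094, 3859 and 1881 in pancreas and values below 0 in parotid gland, a bound of at least 76.6-fold. miR-874 had 1399, 1491 and 1868 against 2.83, 13.9 and 22.0, a bound of at least 48.7-fold scaled and 7.34-fold unscaled. The lowest bounds of the 16 were for miR-678, 8.43-fold scaled and 1.27-fold unscaled, and miR-678 itself was not called on either. The direction of these 16 follows from how they were picked.

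Several of the raised miRNAs share one large miRNA array of the rat genome, which in mammals is imprinted and read from the maternal copy near Dlk1 and Dio3. Between the genes of miR-770 and miR-410 on GRCr8 chr6:134298084-134579838, a stretch of 282 kb, RefSeq lists 57 miRNA genes, and 110 entries of the array belong to them by name. Of these 110 entries 10 were detected on all 3 pancreas arrays and 4 on all 3 parotid arrays, beside 82 and 108 of all 717, and 95 were detected on none of the 6 arrays. The 10 entries were the 10 tested, and 6 of them were on 0 parotid arrays and so entered the test through pancreas alone, which fixes their direction. The other 4 were miR-370, miR-494 and miR-494_v15.0, higher in pancreas on both scales, and miR-409-3p, called on neither (0.93 scaled, -0.05 unscaled), beside 25% and 24.2% called higher over all tested miRNAs. The region was chosen after its values were seen, so these calls are a description. In the other organs the brightest entries of the region were miR-494_v15.0 (10132) and miR-494 (2333), both in bone marrow on the scaled signal, and the next were not among the tested. miR-127, at 1996 in pituitary gland on the scaled signal and found on 91 of 159 arrays of other organs, was on 0 pancreas arrays and 1 parotid array, and miR-434, at 1622 in cerebrum thalamus and found on 94 of 159, was on the same numbers. miR-370 and miR-666, in contrast, reached 31.5 and 1.87 in their highest other organ.

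The miR-200 family was lower in pancreas. miR-200b had scaled signals of 1250, 891 and 1288 in pancreas and 3813, 3481 and 4634 in parotid gland, a difference of -1.81 ± 0.10 (SE, n = 3 rats, limma adjusted p = 0.00941), so that parotid gland was 3.50-fold higher. miR-200a had 1296, 1193 and 1256 against 3460, 3240 and 3538, a difference of -1.45 ± 0.02. Unscaled, miR-200b was 71.2, 38.1 and 41.3 in pancreas and 1911, 1000 and 735 in parotid gland. Its unscaled difference of -4.54 is the scaled one moved by the offset of -2.73 between the percentiles. miR-429, from the same transcript as miR-200a and miR-200b in other mammals, had a difference of -1.50, miR-141 of -0.68 and miR-200c of -0.39. Of the 10 entries of the family 6 were tested, and 5 were lower and 0 higher on the scaled signal, beside 14.8% lower over all miRNAs, and all 6 were lower on the unscaled signal, beside 63.3%. Each of the 6 was on at least 1 pancreas array, and 5 were on all 3. The other, miR-200c, was on 1 and entered the test through parotid gland alone, which favours a lower pancreas value. The entry not called on the scaled signal was the miRBase 15.0 version of miR-200c (-0.59), detected on all 3 arrays of both glands. No alternative turned the direction of the 5 called lower, but with normexp miR-429 (-0.060), miR-141 (-0.056) and miR-200c (-0.023) were nearly level and not called (adjusted p = 0.653 each). miR-141 and miR-200c also missed the threshold without each of the rats, miR-200b and miR-429 without rat 5 and without rat 6, and miR-200c in the authors' normalized table (adjusted p = 0.183) and without the rat as a block (0.134). The mature miR-141 and miR-200c lie 407 bases apart on GRCr8 chr4. Both were called lower, though the miRBase 15.0 version of miR-200c was not called on the scaled signal.

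The family was nevertheless present in pancreas. miR-200a, miR-200b, miR-429 and miR-141 were detected on 3 of 3 pancreas arrays, and the summed scaled signal of the list was 8043, 7361 and 8419 in pancreas and 14842, 13519 and 17960 in parotid gland. In the atlas pancreas ranked 20 and parotid gland 14 of 55 organs for miR-200b on the scaled signal, and mandibular and sublingual glands had 4400 and 4245, close to parotid gland.

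Other epithelial miRNAs were at or near background in pancreas. miR-96, which shares a transcript with miR-183 and miR-182, had scaled signals of 449, 404 and 459 in parotid gland and was on 0 of 3 pancreas arrays (107, 129 and 116), a bound of at least 2.28-fold scaled and 15.1-fold unscaled. miR-205, a miRNA of stratified and glandular epithelia, had 69.4, 44.1 and 20.8 unscaled in parotid gland and 0.135, -0.0294 and -0.616 in pancreas, at least 4.88-fold higher in parotid gland on the unscaled signal. Its scaled parotid values, 138, 153 and 131, lay under the lowest scaled signal that the pancreas arrays detected on average, so that scaling leaves no bound. Of 11 entries of this list 4 were tested (miR-96, miR-183, miR-205 and its version from miRBase 15.0), and all 4 were on 0 pancreas arrays and entered the test through parotid gland alone, which fixes their direction.

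Members of some families that share a seed differed between the glands by unequal amounts. Over the 12 seeds carried by 2 or more of the 104 tested miRNAs with a sequence in the RefSeq table, the unscaled differences of the members spread over 0.04 (miR-26a and miR-26b) to 2.41 (miR-29a to miR-29c). Ratios of members are given here for pairs with a shift, and these ratios do not depend on scaling, since a factor for the whole array cancels when 2 miRNAs of that array are divided. miR-29a over miR-29c was 2.55, 2.69 and 2.99 in pancreas of rats 4, 5 and 6 and 0.33, 0.32 and 0.36 in parotid gland on the log2 scale, a shift of 2.41 ± 0.20 (SD, n = 3 rats), or 5.30-fold. The 2 sequences differ by C10U only. miR-29a alone was higher in pancreas on the scaled signal (4629, 5164 and 5139 against 1966, 2202 and 2118, difference 1.25) and lower on the unscaled signal (217 ± 49.5 against 651 ± 325, SD, n = 3, difference -1.48), with the 75th percentile over all miRNAs and in the authors' normalized table, while miR-29c was lower on both (-1.16 and -3.89). The scaled call of miR-29c was lost with normexp (-0.094, adjusted p = 0.653) and with a floor 4 times as high (-0.60, 0.0582). It was also lost without each rat (0.0579, 0.125 and 0.0778). miR-29b, read from the same transcripts as miR-29a or miR-29c, did not pass on the scaled signal (-0.10, adjusted p = 0.268). miR-29 members are known for targeting messenger RNAs of collagens.

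The miR-30 family was split in the same manner. miR-30a over miR-30c was 2.20, 3.00 and 2.84 in pancreas and 0.08, 0.39 and 0.45 in parotid gland, a shift of 2.38 ± 0.24 (SD, n = 3 rats), with miR-30c undetected on 1 pancreas array. On the scaled signal miR-30a (1.31) and miR-30d (0.96) were higher in pancreas, and miR-30b-5p (-1.27) and miR-30c (-1.07) were lower. The calls of miR-30b-5p, miR-30c and miR-30d were lost without each rat. With normexp miR-30b-5p (-0.046) and miR-30c (-0.056) were nearly level (adjusted p = 0.653 each). miR-30a and miR-30d turned lower unscaled, with the 75th percentile over all miRNAs and in the authors' normalized table. On the unscaled signal all 6 tested entries were lower, beside 63.3% over all miRNAs. miR-30a* among them was on 0 pancreas arrays, miR-30b-5p on 1 and miR-30c on 2. These entered the test through parotid gland alone, which fixes the direction of miR-30a* and favours lower pancreas values for miR-30b-5p and miR-30c. miR-30e, at 0.29, did not pass on the scaled signal (adjusted p = 0.0516).

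In the let-7 family let-7b moved apart from the rest. let-7b over let-7f was 1.70, 2.32 and 2.54 in pancreas and -0.27, 0.40 and 1.14 in parotid gland, a shift of 1.76 ± 0.31, and let-7b over let-7a shifted by 1.48 ± 0.21 (SD, n = 3 rats). On the scaled signal let-7b was higher in pancreas (6874, 7015 and 8522 against 3189, 3858 and 5211), and let-7a, let-7d, let-7f and let-7i were lower. The scaled calls of let-7a, let-7b and let-7f were lost without each rat. That of let-7d was lost without rat 4 and without rat 6, and that of let-7i without rat 5 and without rat 6. With normexp let-7d (-0.052) and let-7i (-0.076) were nearly level (adjusted p = 0.653 each). let-7b had a negative difference unscaled, with the 75th percentile over all miRNAs, with quantile normalization and in the authors' normalized table. let-7c, the brightest miRNA of parotid gland after the 4 entries above, was nearly level on the scaled signal, with 5698, 4610 and 5592 against 5168, 5448 and 6719 (-0.12, adjusted p = 0.535). Of 17 entries 8 were tested, 2 of them (let-7e and miR-98) through parotid gland alone. After scaling 1 was higher and 4 lower, beside 25% and 14.8% over all miRNAs, and all 8 were lower on the unscaled signal, beside 63.3%. let-7 miRNAs are known to hold back cell growth genes such as Hmga2 and Lin28.

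Further pairs gave smaller shifts toward pancreas, 1.12 ± 0.22 for miR-25 over miR-92a and 0.65 ± 0.38 for miR-27b over miR-27a. The pairs were chosen after their values were seen and are given without a test. In each of the 7 pairs the shift had the same sign in all 3 rats. Probes of members that differ by 1 base can take signal from each other, which was not tested. Other families are set beside the shares over all miRNAs, 25% higher and 14.8% lower scaled and 63.3% lower unscaled. Of the entries of miR-99, miR-100 and miR-125 4 were tested, and scaled 2 were higher (miR-99a at 0.40 and miR-125a-3p) and 1 lower (miR-125b-5p at -0.50), while unscaled 1 was higher and 3 were lower. Among these 4, miR-100, on 1 pancreas array, entered the test through parotid gland alone and miR-125a-3p through pancreas alone. miR-34a, the tested entry of its family, was 1.44 scaled and -1.29 unscaled, and both miR-34a and miR-99a missed the threshold on the scaled signal without each rat. For miR-26 both members were lower on both scales (scaled -0.60 and -0.56), while of the miR-15/16 family 0 of 4 and of the miR-23/24/27 family 1 of 5 were called lower scaled, with 4 and 5 lower unscaled. miR-195, of the miR-15/16 family, was on 0 pancreas arrays, miR-15b on 1 and miR-497 on 2. These entered the test through parotid gland alone, which fixes the direction of miR-195 and favours lower pancreas values for miR-15b and miR-497. Of the miR-181 family 2 of 3 were higher scaled, beside 25% over all miRNAs, where miR-181a had 1294, 1505 and 1966 in pancreas and 283, 353 and 464 in parotid gland (2.12 ± 0.03), but unscaled it had -0.61 (adjusted p = 0.111), with the 75th percentile over all miRNAs -0.04, and miR-181b had 1.46 scaled and 1.02 unscaled. The scaled call of miR-181b was lost in the authors' normalized table (0.088, adjusted p = 0.609), with normexp, with a floor 4 times as high and without each rat (adjusted p = 0.0724, 0.191 and 0.130), and miR-181a was nearly level with normexp (0.051, adjusted p = 0.653).

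**Figure D4:**
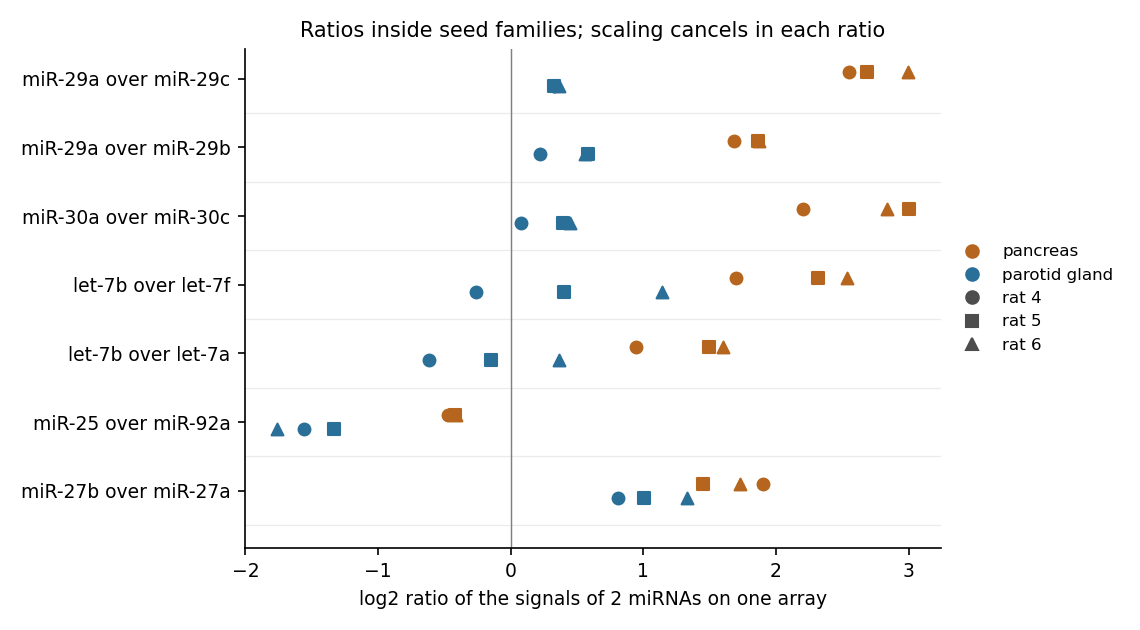
Points give the log2 ratio of the signals of 2 miRNAs on the same array for 7 pairs that share a seed, with colour for the gland and symbol for the rat. In every pair the 3 pancreas arrays lie to the right of the 3 parotid arrays, by a mean of 2.41 for miR-29a over miR-29c and 0.65 for miR-27b over miR-27a.

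Markers of other cell types differed between the glands and between rats. The striated muscle miRNAs were at background in pancreas, where the list of 13 entries was detected on 0 arrays, and were strong in parotid gland of 2 rats. miR-133b had unscaled signals of 3539, 1047 and 3.91 in parotid gland of rats 4, 5 and 6, and miR-1 had 2198, 610 and 2.40. They made up 6.41% and 3.98% of the summed signal in rat 4, 2.57% and 1.50% in rat 5 and 0.0159% and 0.00975% in rat 6. The summed scaled signal of the list was 12362, 6242 and 104 in parotid gland and 301 to 466 in pancreas. Because rat 6 lacked them, 0 of the list were tested, and the part of muscle in the other parotid values was not tested.

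Of the 5 tested smooth muscle and mesenchymal miRNAs 1 was lower in pancreas after scaling, near the 14.8% over all miRNAs. miR-143, the main miRNA of smooth muscle, had 354, 345 and 224 scaled in pancreas and 1126, 950 and 749 in parotid gland, a difference of -1.53 ± 0.06 scaled (limma adjusted p = 0.0069) and -4.19 unscaled, with 1 of 3 pancreas arrays detecting it. It thus entered the test through parotid gland alone, which favours a lower pancreas value. With normexp background correction its difference was -0.039 (adjusted p = 0.653). The scaled call of miR-143 was also lost with a floor 4 times as high (-0.015, adjusted p = 0.420), without rat 5 (0.0759) and without rat 6 (0.0778). The 4 tested mesenchymal entries, miR-21 among them (-0.61, adjusted p = 0.0906), were not called scaled and were lower unscaled, as were 63.3% of all miRNAs. miR-214 and miR-199a-3p, also among them, were on 0 and 2 pancreas arrays and entered the test through parotid gland alone. That fixes the direction of miR-214 and favours a lower pancreas value for miR-199a-3p. The endothelial miR-126 had 333, 317 and 282 against 545, 488 and 231, overlapping between the glands (-0.43, adjusted p = 0.248).

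Leukocyte and red cell miRNAs were faint in both glands. Of 10 leukocyte entries 4 were tested. miR-223, of myeloid cells, had 488, 864 and 878 scaled in pancreas and 148, 214 and 234 in parotid gland, which narrowly did not pass (1.40, adjusted p = 0.0511), and unscaled it was lower in pancreas (-0.85). miR-142-3p and miR-146a were detected on 0 pancreas arrays and 3 parotid arrays. They entered the test through parotid gland alone, which fixes their direction. Of the 4, 1 was higher after scaling, the same share as the 25% over all miRNAs, and 3 were lower unscaled, beside 63.3%. The higher one, miR-150*, is the passenger strand of miR-150, which itself was on 0 pancreas arrays. miR-150* was on 2 parotid arrays and entered the test through pancreas alone, which favours a higher value there. Its scaled difference of 1.72 was 0.22 in the authors' normalized table (adjusted p = 0.344) and close to 0 with normexp or a floor 4 times as high, and it missed the threshold without rat 5 (0.191) and without rat 6 (0.168). The red cell miRNA miR-451 had unscaled signals of 1.18, 2.16 and 1.42 in pancreas and 32.2, 18.2 and 2.96 in parotid gland after perfusion. Hepatocyte and intestinal lists were detected on 0 of the 6 arrays, and the neural list on 0 pancreas arrays.

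In the other direction 29 miRNAs were detected on 3 of 3 parotid arrays and 0 of 3 pancreas arrays. They were picked for this, which fixes their direction, and all 29 bounds on the unscaled signal exceed 1. A bound over 1 on the scaled signal was left for 5: miR-96, miR-195 (1.78-fold), miR-107 (1.19-fold), miR-10b (1.17-fold) and miR-103 (1.02-fold). For the other 24 the scaled signal leaves no bound, because the pancreas arrays detected nothing under a scaled signal of 115 to 273, whereas parotid arrays reached down to 20.3 to 50.1. On the unscaled signal the lowest detected values of the 2 glands were alike, 6.54 to 9.59 in pancreas and 7.95 to 10.2 in parotid gland.

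Base composition varied with the gland difference. Of the 128 tested miRNAs 104 (81.2%) have a sequence in the table used, 77 of them with an arm assigned by hand. The median share of G and C was 60.9% in the 15 with a sequence that were higher in pancreas on both scales, 40.9% in the 15 that were lower on both, and 47.6% over all 104. Across the 104 miRNAs Spearman's rho between the share of G and C and the difference was 0.61 scaled and 0.62 unscaled, and 0.62 and 0.69 over the 78 above the floor on at least 1 array, a description across miRNAs that share 6 arrays. The acinar markers were not at the GC-rich end, with 45.5% in miR-216a and 50.0% in miR-217. The islet marker miR-375 held 54.5%, equal to the median of the miRNAs higher in pancreas on the scaled signal. miR-494, among the brightest, had 43.5%. In 5 of the 7 pairs within a seed family the member that shifted toward pancreas held more G and C, and for miR-25 over miR-92a and miR-27b over miR-27a it held less. The part of base composition in the differences was not tested.

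**Figure D5:**
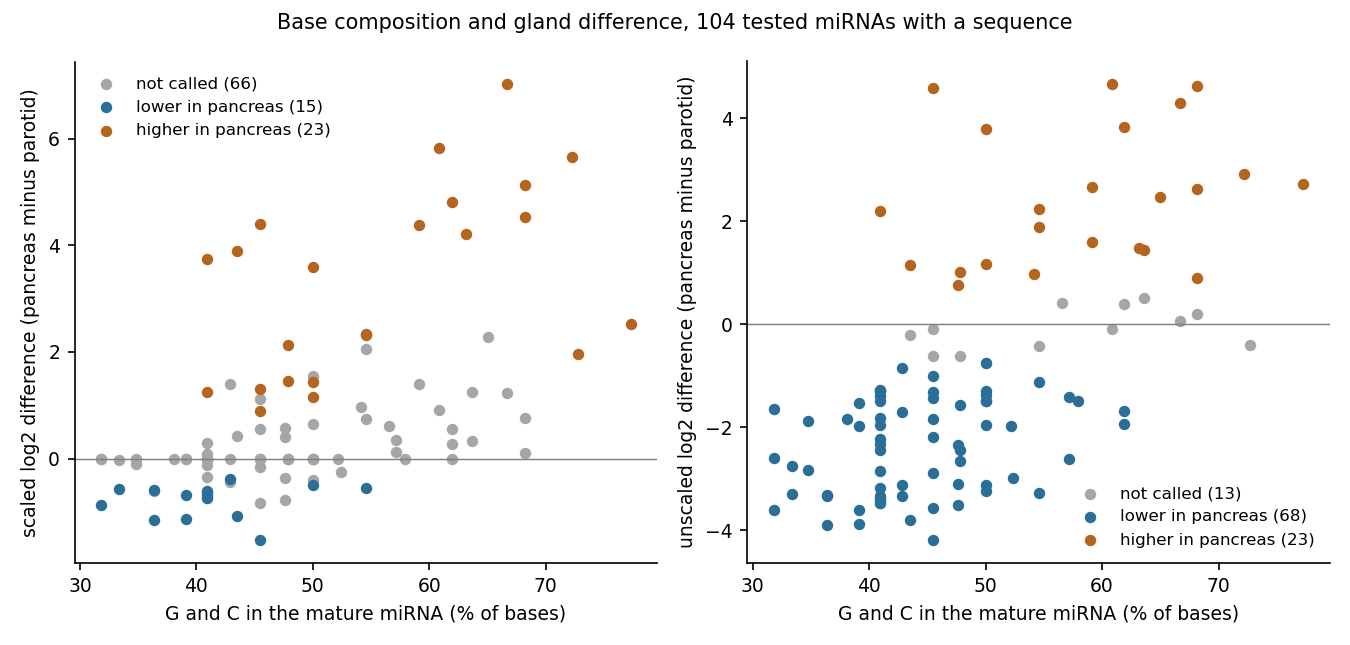
Each point is 1 of 104 tested miRNAs with a sequence, with the share of G and C in the mature miRNA (%) on the horizontal axis and the scaled (left) or unscaled (right) log2 difference, pancreas minus parotid gland, on the vertical axis, coloured by the call on that scale. Points over 60% lie mostly above 0 on the scaled signal, and miR-216a at 45.5% and miR-217 at 50.0% stand high among miRNAs of medium share.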

How the data were processed

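Pancreas and parotid gland of 3 perfused rats were measured on 6 of 180 one-color Agilent miRNA arrays. RNA was extracted with the miRNeasy kit, and Agilent Feature Extraction 10.7.3, per the submitters' processing notes, gave the deposited spot intensity. The authors corrected each intensity (gProcessedSignal) for background before deposition; their normalized table of intensity values, scaled by the authors to the 75th percentile of each array, served as an alternative. Arrays have no read depth, so their number limits the precision.

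Spots marked as outliers (2.48% to 3.63% per array) were left out, and spots were averaged per probe and then per miRNA. Detection of a miRNA required the scanner software's well-above-background mark on more than 50% of its spots. For the scaled signal, each array was divided by the 75th percentile of 37 miRNAs, those that every one of the 180 arrays detected, and multiplied by the mean of these percentiles, 2118. Scaled values were set to at least 272.6 and unscaled values to at least 10.2 before log2. The difference, pancreas minus parotid gland, was fitted with limma 3.58.1 in R 4.3.3 (lmFit and eBayes, two-sided) with the rat as a block, over 128 miRNAs, with Benjamini-Hochberg adjustment. The numbers pair the glands because both came from the same animal, and deviations from the gland means correlated within rats at 0.24, 0.20 and 0.31. Since the arrays of one rat were scanned together, rat and scan cannot be told apart there. In the fits over all perfused arrays the estimated correlation was 0.0044 within rats and 0.058 within slides. Fold bounds for a miRNA on 0 arrays of one gland set the mean log2 signal of the other gland against, per array, the higher of its lowest detected signal and the miRNA's own.

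Named miRNAs were members of lists, the 12 with the largest scaled difference in each direction, the 5 brightest of each gland and the 3 bright ones nearest to no difference. Features of the miR-770 to miR-410 region, the seed family pairs and the miRNAs of one gland only were singled out after their values were seen. The comparison, the lists and the rule were chosen with earlier results of these data known. Alternatives covered scaling, floor, background, spots, filter, block, pooled fits and each rat left out. On simulated data with 20 miRNAs planted in each of 50 draws, the scaled fit called 36.4%, 67.3% and 93.9% of log2 differences of 1, 2 and 4 and at most 1.47% of unchanged miRNAs, and the unscaled fit called 10.7%, 86.0% and 99.1%. The simulated noise was independent between miRNAs, no floor was applied to it, and miRNAs without spread entered neither share. Shifts common to all miRNAs of an array, as seen in these data, are thus not covered. Sequences and positions came from RefSeq (GRCr8), where 27 names matched as written and 77 after an arm was assigned by hand. Python 3.11.15 with pandas 2.3.3, numpy 2.4.6, scipy 1.17.1 and matplotlib 3.10.9 was used.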

Additional observations from a re-analysis of the deposited data

How the results depend on the processing

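The count of miRNAs higher in pancreas was 32 and stayed within 1.5 times of that under most settings, but was 66 with a low floor, 7 with a floor 4 times as high, 17 with normexp background correction (on the median spot and background signals), 15 in the authors' normalized table and 63 in the fits over all perfused arrays with rat or slide as a random block. The count lower was 19, but 81 without scaling (78 when the replicate block was left out as well), 77 with the 75th percentile over all miRNAs, 38 over the miRNAs detected on all 6 arrays, 55 with quantile normalization, 40 with a low floor, 3 with a floor 4 times as high, 4 with normexp and 35 in the authors' normalized table. Leaving out each rat in turn gave 8 to 31 higher and 3 to 9 lower scaled, and, in fits added after the data were seen, as was the unscaled fit without the block, 26 to 31 higher and 74 to 83 lower unscaled. Without the replicate block the scaled counts were 40 and 20, of which 30 and 16 were the same miRNAs; let-7f, miR-26b, miR-30d, miR-99a and miR-200c then missed the threshold and miR-23a passed. The log2 difference in the 75th percentile, -2.73, became -0.57 over all miRNAs and -1.94 over those detected on all 6 arrays, and ran from -2.94 to -2.53 with each rat left out.

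Without scaling, with or without the block, the difference turned negative for miR-375 (-0.41), let-7b (-1.84), miR-29a (-1.48), miR-30a (-1.42), miR-30d (-1.77), miR-25 (-1.49), miR-99a (-2.33), miR-34a (-1.29) and miR-181a (-0.61). With each rat left out as well these ran from -0.55 to -0.26, -1.96 to -1.74, -1.71 to -1.27, -1.65 to -1.23, -1.83 to -1.70, -1.69 to -1.26, -2.49 to -2.14, -1.49 to -1.06 and -0.80 to -0.44. On the scaled signal the same 9 miRNAs stayed positive with each rat left out, reaching 2.40, 0.99, 1.26, 1.32, 1.11, 1.26, 0.45, 1.66 and 2.14 in the same order. With the 75th percentile over all miRNAs they were -1.27 for let-7b, -0.92 for miR-29a, -0.86 for miR-30a, -1.20 for miR-30d, -0.92 for miR-25, -1.76 for miR-99a, -0.72 for miR-34a and -0.040 for miR-181a, and over those detected on all 6 arrays -0.39 for miR-99a. In the authors' normalized table they were -0.82 for let-7b, -0.46 for miR-29a, -0.41 for miR-30a, -0.75 for miR-30d, -0.13 for miR-25, -1.31 for miR-99a and -0.27 for miR-34a. Quantile normalization turned miR-494_v15.0 (-1.10), let-7b (-0.089), miR-25 (-0.37) and miR-99a (-0.17), and normexp turned miR-150* (-0.012), miR-25 (-0.020) and miR-181b (-0.011). No other named miRNA that passed on the scaled signal turned. miR-216a and miR-217, whose direction is fixed by their entry through pancreas alone, passed the threshold in all 24 alternatives that gave them a value. The cause of these changes was not tested.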
